A study of Mus musculus with 4 samples.

Results

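Of the 3' UTR peaks of N6-methyladenosine (m6A) that the authors called in the cortex of sham mice, those that were called again after repetitive mild traumatic brain injury (rmTBI) are described here. They are the peaks of the sham set, classed as 3' UTR in the deposited table, that share at least 1 base on the same strand with any peak of the rmTBI set. The rule took 4508 of 7040 sham 3' UTR peaks (64.0%), out of 33977 peaks of all classes and both sets, and the 4508 peaks lay in 3559 of the 10415 genes with a peak. The table also held 2532 sham 3' UTR peaks with no overlapping rmTBI peak and 1909 rmTBI 3' UTR peaks with no overlapping sham peak. No pair of a sham and an rmTBI peak in the table had both edges in common, and peak numbers run past the number of rows. Shares, widths and edge shifts therefore describe the listed peaks and not every region called in both conditions. The peak calls that chose these regions were made on the same 4 libraries whose counts are compared, so that their presence in both conditions is not a result.

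The rmTBI group held 2 libraries from the cerebral cortex of mice after the injury, and the sham group held 2 from mice after the sham procedure. All 4 are labelled as made from total RNA extracted with TRIzol and with the same anti-m6A antibody. The sources used here do not give the strain, age or sex of the mice, any pooling, the injury protocol or the time after it. The libraries are numbered 0 and 1 within each group, and neither the meaning of the numbers nor whether they came from separate mice is stated. All p-values are thus set by how far these 4 libraries spread, and that spread may be technical. It includes a difference between the numbers. At the shared peaks the median log2 ratio of library 1 to library 0 was 0.25 in rmTBI and 0.24 in sham. Folds and p-values here treat numbers 0 and 1 as replicates of the same assay, which the labels do not state, so values are also given within a number for leading peaks.

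The m6A mark is set on nascent transcripts by a methyltransferase complex around METTL3 and METTL14, mostly within short motifs of the type GGAC, and it is concentrated near stop codons and in 3' UTRs. There it is read by proteins of the YTH family, which affect splicing, decay and translation of the transcript. In neurons, long 3' UTRs also hold the elements through which mRNAs are sent into dendrites and axons, and m6A on such mRNAs has been studied in learning and injury. In m6A immunoprecipitation, antibody-bound RNA fragments are sequenced and their pile-ups are called as peaks. No library labelled as made without the antibody was analysed here. More or less methylation and more or less transcript can therefore give the same change in counts.

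The RefSeq tables for GRCm38.p6 hold the bases of only a small portion of these regions. These are the places where a peak reaches into the window from 250 bases before to 50 after a transcript's start. The gene of that transcript was not checked and may be the peak's own. Such windows shared 7543 of the 4290839 bases of the peaks and touched 42 of them. The motif was searched in 3 forms, written GGACT, with A in place of the last T as GGACA, and with C there as GGACC. At least 1 form stood in the shared bases of 26 of the 42 peaks on the strand of the transcript, with 38 matches on that strand and 18 on the opposite one. Overlapping Hyal1 peaks each count the same sites. The shared stretches ran from 4 to 300 bases, so their share cannot be set against that of whole windows. Across all 32851 windows of 300 bases, GGACT stood in 26.1% on the strand of the gene and 26.0% on the opposite strand, and 60.2% and 60.4% held at least 1 of the 3 motifs. A match is a description of the letters and not a methylated site. The 3 stretches shown, each with GGACT in capitals, 5' to 3' on the strand of the transcript, show the motif within peaks of under 500 bases. Cby1 encodes an antagonist of beta-catenin, Zbtb8a a zinc finger protein and Hyal1 a hyaluronidase.
Cby1, chr15:79667082-79667110, plus strand: gcactcgctaggGGACTggaaagagccca
Zbtb8a, chr4:129354297-129354325, minus strand: cgatggagacaaGGACTgccggtggcacc
Hyal1, chr9:107580487-107580515, plus strand: accaacccacgaGGACTggagaccctaca

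At these peaks the groups lay close together. The Cby1 peak had 33.4 and 25.04 CPM (read counts scaled by TMM to the size of the library) in rmTBI libraries 0 and 1, against 33.3 and 25.6 in sham libraries 0 and 1. The Zbtb8a peak had 8.19 and 9.21 CPM in rmTBI, against 8.13 and 11.05 in sham.

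Some of the 3' UTR peaks also covered an annotated microRNA. The whole hairpin of miR-671 lay on the same strand within the 539-base peak of Chpf2, a gene of chondroitin sulfate synthesis (chr5:24591952-24592490). Its mature forms, with the seed (bases 2 to 8) in capitals, are shown because their positions fall inside the peak, and they do not share a seed.
mmu-miR-671-5p: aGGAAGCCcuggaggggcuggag
mmu-miR-671-3p: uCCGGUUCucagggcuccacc
The Chpf2 peak held 3.11 and 4.93 CPM in the rmTBI libraries, against 2.71 and 5.49 in the sham libraries, and the groups overlapped. The hairpins of miR-6897 and miR-7578 lay within the wider spans of the Uggt1 peak and the Brd3 peak on the same strand.

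The libraries held 13753600 and 26888072 counts over all peaks in rmTBI 0 and 1, and 14437317 and 26356562 in sham 0 and 1. Library 1 of each group was therefore the deeper one, and the median shared 3' UTR peak had 102 and 247 counts in the rmTBI libraries, against 110 and 240 in the sham libraries. Under 10 counts were found at 232 of the 4508 peaks in rmTBI library 0 and at 4 in rmTBI library 1, against 209 in sham library 0 and 1 in sham library 1. Levels of these lowest peaks are the least certain. In the RefSeq annotation of GRCm38.p6, the gene of 4356 of the 4508 peaks had 1 entry, and 4259 of those overlapped its span. Of the 4356, 4343 were in protein-coding genes. The 3' edge of a peak lay a median of 1618 bases before the annotated end of the gene (quartiles 633 and 3207), and in 867 of 4259 it lay within 500 bases of that end. Most peaks thus lay well before the last bases of the longest annotated transcript.

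The shared peaks were wider and held more reads than the 3' UTR peaks of a single set. Their median width was 329.5 bases, against 182 for 3' UTR peaks of the rmTBI set alone and 211 for those of the sham set alone, and the median level was 8.39 CPM against 1.74 and 2.77 CPM. Per kilobase of peak span, the medians were 21.7, 8.34 and 11.4 CPM per kb. The span is that on the genome and can include introns, which lowers the value of wide peaks. Shared coding peaks of the sham set were wider still, with a median of 511 bases and 18.1 CPM per kb. Ranked by CPM into 4 groups of equal number, the sham 3' UTR peaks were called again in rmTBI in 36.2% of the lowest group and in 63.7, 77.0 and 79.2% of the groups above it. By width the share was 38.8% in the narrowest group and 83.7% in the widest, and by CPM per kb 44.6% in the lowest and 71.4% in the highest. Calling of a peak draws on the same reads, so these shares are given with no test. Shared peaks were also chosen by overlap of position, and a wider peak is more likely to overlap another. The differences in width and the shares by width are thus favoured by the rule itself. How far they go beyond it was not tested.

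**Figure D1:**
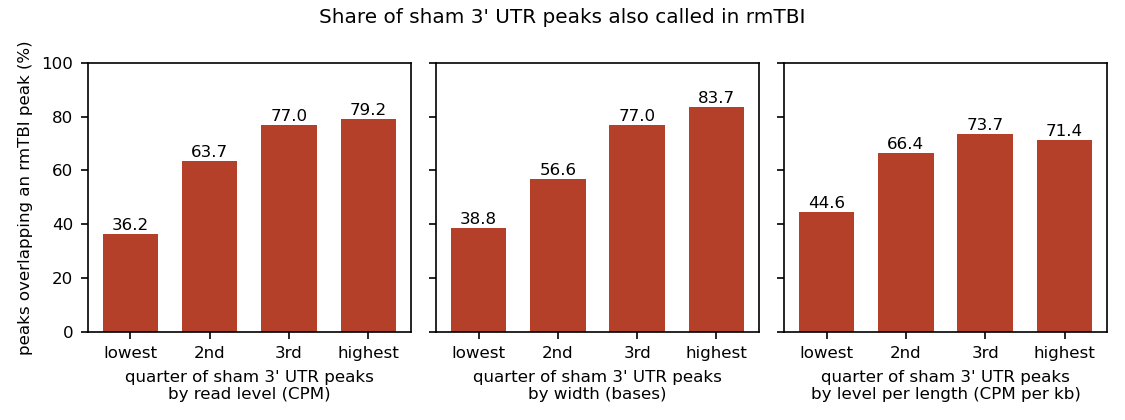
Bars give the percentage of the 7040 sham 3' UTR peaks that overlap an rmTBI peak, in 4 groups of equal number by mean level (CPM), by width (bases) and by level per length (CPM per kb). The share was smallest in the lowest group of each measure, at 36.2, 38.8 and 44.6%, and it was 79.2, 83.7 and 71.4% in the highest groups. A wider peak is more likely to overlap another, so the rule itself favours the rise by width.

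Most shared peaks had a single counterpart of about the same width. Of the 4508, 4296 overlapped 1 rmTBI peak, 202 overlapped 2, 8 overlapped 3 and 2 overlapped 4. In the 4091 pairs in which each peak had only the other, the rmTBI peak was wider in 2057, narrower in 1803 and of equal width in 231. The median ratio of widths, rmTBI over sham, was 1.00, with the rmTBI peak at least 2 times as wide in 279 pairs and at most 0.5 times as wide in 195. Over all 4732 pairs the 5' edge moved by under 100 bases in 73.9% and the 3' edge in 80.5%, and a median of 90.9% of the sham peak was covered. The counterpart was itself classed as 3' UTR in 4507 pairs and as coding in 222.

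The outer cases show what the rule of 1 base admits. The fewest bases shared were 2, at 15 peaks, among them those of Oprk1, the kappa opioid receptor, Rab23, a small GTPase, and Chst10, a sulfotransferase. The Oprk1 peak held 18 and 24 counts in the rmTBI libraries, against 21 and 36 in sham. Just outside the rule, the 3' UTR peak of Ninj1, a cell adhesion gene, lay 27 bases from the nearest rmTBI peak and held 22 and 37 counts in rmTBI, against 13 and 41 in sham. Peaks of Tnr, a matrix glycoprotein of perineuronal nets, and Coro6, a coronin, lay 28 bases away. In all, 23 of the sham 3' UTR peaks left out lay within 30 bases of an rmTBI peak and 812 within 1000 bases. Width differed most at Palm2, whose 388-base peak lay in an rmTBI peak of 119662 bases classed as coding, and at BC052040, whose peak spanned 90002 bases in sham against 210 in rmTBI. Spans of that size reach beyond a usual 3' UTR, and 552 of the 4508 peaks were over 1000 bases wide.

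**Figure D2:**
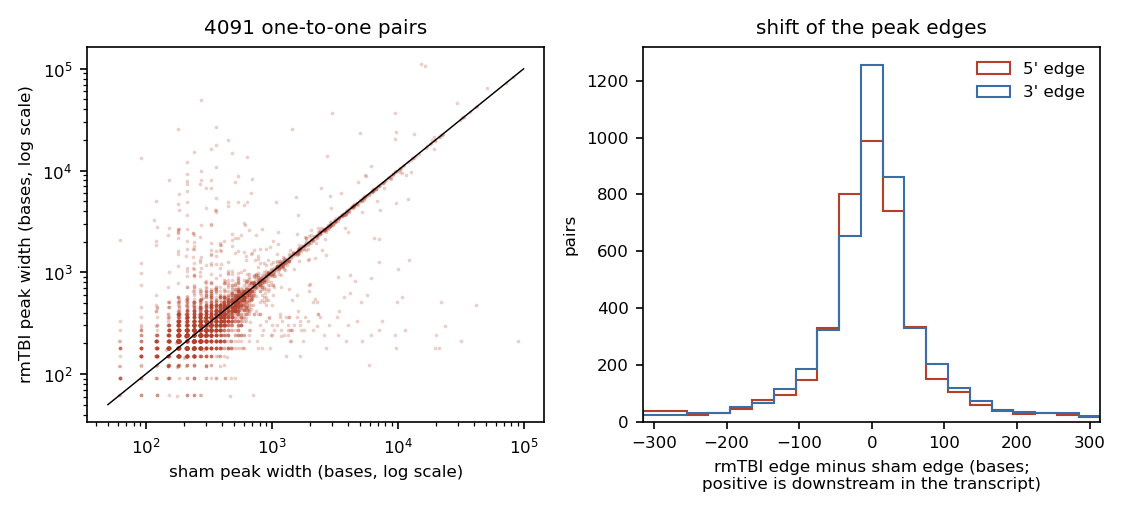
Left, width of the rmTBI peak against width of the sham peak (bases, log axes) for 4091 pairs in which each peak had only the other, with the line of equality. Right, number of pairs by the shift of each edge in bases, rmTBI minus sham, positive downstream in the transcript. Most points lie near the line, with a median width ratio of 1.00.

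Between rmTBI and sham, read counts at the shared 3' UTR peaks differed little, apart from a small number of genes that were much lower after rmTBI. The 5 peaks that passed the test were those of Shox2 and Lhx9, homeobox transcription factor genes of the developing thalamus, Slc17a6, the vesicular glutamate transporter of subcortical neurons, Synpo2, an actin-binding protein, and Plekhg1, a guanine nucleotide exchange factor. Their counts fell by 2.40 to 5.84 on the log2 scale. With group alone in the model, where differences between the library numbers count as spread, edgeR called no peak higher. Bulk tissue labelled as cortex was sequenced. Fewer cells of a type, a different share of neighbouring regions in the samples and less RNA per cell cannot be told apart.

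Counts were tested with the edgeR quasi-likelihood test on all peaks of the table, with Benjamini-Hochberg adjustment over 33415 peaks. Of the shared 3' UTR peaks, 4499 passed the filter on low counts, and 5 of them were called lower and 0 higher at an adjusted p under 0.05. Among all tested peaks, 0.0868% were called lower and 0% higher, so that the 0.111% called lower here is near the background. At an unadjusted p under 0.05, 107 peaks were lower and 34 higher, against 2.11% and 0.73% of all tested peaks. DESeq2 called 17, of which 1, at Arhgap25, was higher, and this is 0.377%, against 0.386% of all peaks it tested. The edgeR calls ended with library-size scaling, where the smallest adjusted p was 0.1005, and when each library had to hold 10 counts or more, where it was 0.0867. Leaving out a library gave 10 calls without rmTBI 0, 22 without rmTBI 1, 18 without sham 0 and 9 without sham 1, and all 5 peaks were among them each time. In the same order, the shares were 0.222, 0.493, 0.399 and 0.201%, against 0.271, 0.368, 0.356 and 0.247% of all tested peaks.

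The spread of the fold changes was narrow. The median log2 fold change, rmTBI over sham, was 0.02, with -0.13 without rmTBI 1, -0.09 without sham 0 and 0.15 without sham 1. Leaving out a library also leaves the library numbers unbalanced between the groups. Between same-numbered libraries the median was 0.01 for number 0 and 0.02 for number 1. With all 4 libraries the central 90% of the folds ran from -0.57 to 0.51, against a median of 0.02 and limits of -0.62 and 0.54 over all tested peaks. The fold lay within 0.25 of 0 at 2908 of the 4499 peaks (64.6%). A log2 fold under -1 was found at 55 peaks and one over 1 at 17, where the share among all tested peaks was 1.73% and 0.655%. Both rmTBI libraries lay below both sham libraries at 592 peaks and above them at 581, which is 13.2% and 12.9%, where 12.3% of all tested peaks did so in either direction.

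**Figure D3:**
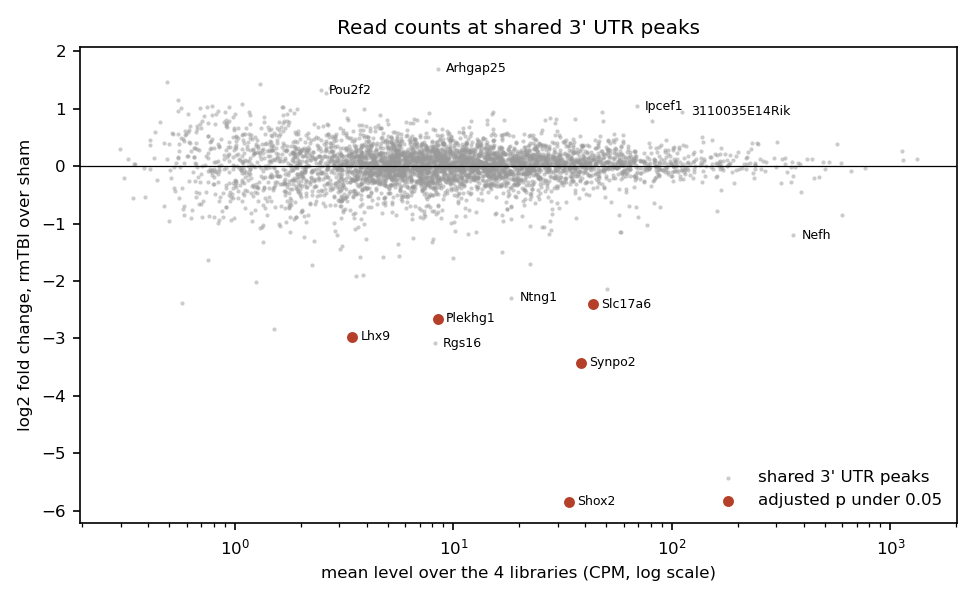
Each point is 1 of 4499 shared 3' UTR peaks, with its mean level over the 4 libraries (CPM, log axis) and its log2 fold change, rmTBI over sham. The 5 called peaks, in red, lie between -5.84 and -2.40, and named grey points did not pass the test.

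Shox2 showed the greatest difference. Its peak (chr3:66972680-66973576) held 0.303 and 1.76 CPM in the rmTBI libraries, against 46.6 and 86.2 CPM in the sham libraries, from 4 and 49 counts against 654 and 2356. The rmTBI peak at this place covered 330 bases of the 897-base sham peak. The log2 fold was -5.84 (SE 0.66), with -6.87 between the libraries numbered 0 and -5.54 between those numbered 1. The adjusted p was 0.0437 at each of the 5 called peaks by the edgeR test.

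Lhx9, a LIM homeobox gene, was low in every library but separated in the same way. Its peak (chr1:138828477-138829182) held 0.758 and 0.791 CPM in rmTBI, against 5.70 and 6.51 CPM in sham, a log2 fold of -2.97 (SE 0.34). Its rmTBI peak was 62 bases wide, against 706 in sham. For Slc17a6 (chr7:51669050-51669411) the levels were 12.2 and 15.3 CPM in rmTBI, against 64.3 and 81.7 CPM in sham, and the log2 fold was -2.40 (SE 0.28), nearly the same between libraries 0 (-2.39) as between libraries 1 (-2.41).

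Synpo2 and Plekhg1 encode proteins of the cytoskeleton and its signalling. The Synpo2 peak (chr3:123111423-123111783) held 5.53 and 7.48 CPM in rmTBI, against 49.3 and 91.0 CPM in sham (log2 -3.42, SE 0.38). The Plekhg1 peak (chr10:3963948-3964458) held 2.12 and 2.48 CPM in rmTBI, against 15.5 and 13.8 CPM in sham (log2 -2.65, SE 0.28). In all 5 called genes the rmTBI libraries lay below both sham libraries, which a call favours, and 12.3% of all tested peaks did so. The rmTBI peak was the narrower one in all 5, at 451 against 511 bases for Plekhg1, 301 against 361 for Synpo2 and 272 against 362 for Slc17a6. Widths were called on the same reads, so a call of lower counts favours this. Of the 4091 pairs in which each peak had only the other, 1803 (44.1%) were narrower in rmTBI.

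The next genes by p-value did not pass the test. Rgs16, a regulator of G protein signalling, had 1.06 and 2.27 CPM in rmTBI, against 12.5 and 17.01 CPM in sham (log2 -3.08, adjusted p = 0.0683, edgeR). Ntng1, which encodes netrin-G1 of thalamocortical axons, had 4.55 and 7.81 CPM, against 27.0 and 34.2 CPM (log2 -2.29, adjusted p = 0.101, edgeR). Nefh, the heavy neurofilament chain of large axons, stood far higher in level, at 200 and 234 CPM in rmTBI, against 456 and 541 CPM in sham (log2 -1.20, adjusted p = 0.242, edgeR). In each of these genes the groups did not overlap, which their choice by smallest p-value favours. Of all tested peaks, 12.3% lay apart in the lower direction.

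On the higher side the differences were smaller. Arhgap25, a GTPase-activating protein of Rac, had 12.2 and 13.7 CPM in rmTBI, against 3.28 and 4.65 CPM in sham (log2 1.70, adjusted p = 0.184, edgeR), at a peak of 3217 bases. The 271-base peak of 3110035E14Rik had 154 and 139 CPM in rmTBI, against 73.9 and 78.7 CPM in sham (log2 0.94, adjusted p = 0.569, edgeR). Ipcef1, a binding partner of cytohesins, had 74.9 and 111 CPM in rmTBI, against 36.6 and 53.5 CPM in sham. The remaining leading genes had adjusted p-values of 0.873 or more by edgeR. They were the imprinted gene Peg10, at a log2 fold of 0.93, the axonal membrane protein gene Islr2 at 0.90, the transcription factor gene Pou2f2 at 1.32, the calcium pump gene Atp2b4 at 0.84 and Mpped1 at 0.80. In every one of the 8 leading higher genes both rmTBI libraries lay above both sham libraries, which their choice by smallest p-value favours, and 12.3% of all tested peaks did so.

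**Figure D4:**
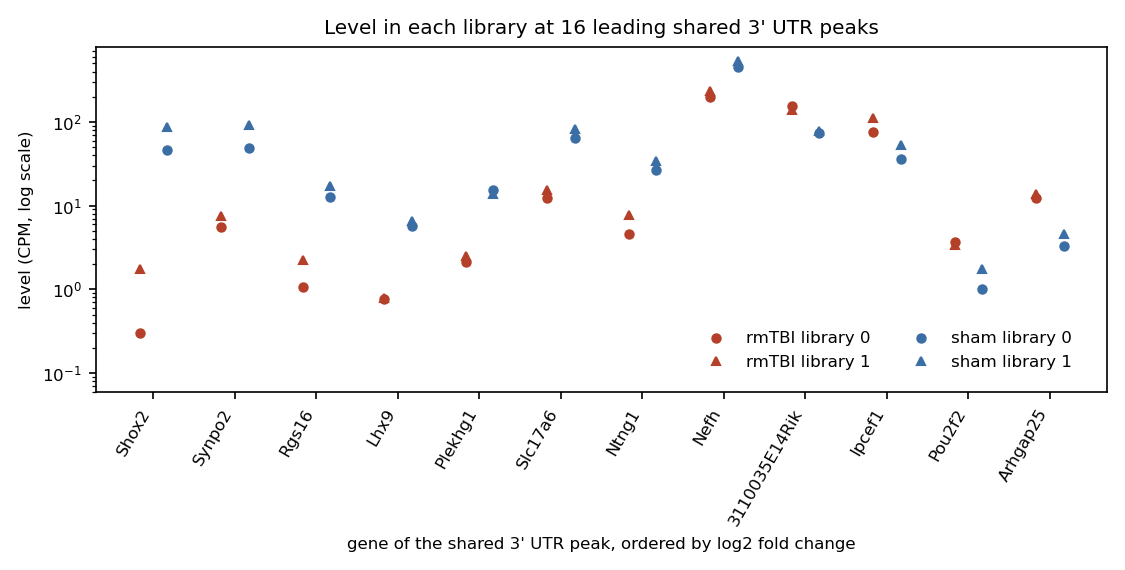
Points give the level (CPM, log axis) in rmTBI libraries 0 and 1 (red) and sham libraries 0 and 1 (blue). Shown are the 8 lower shared 3' UTR peaks chosen by smallest p-value. Of the 8 higher ones, those of Arhgap25, 3110035E14Rik, Ipcef1 and Pou2f2 are shown. The title counts all 16 chosen peaks, but Peg10, Islr2, Atp2b4 and Mpped1 are not drawn. In all 16 the groups do not overlap, which choice by smallest p-value favours. Peaks are ordered by log2 fold change. The first is Shox2, at 0.303 and 1.76 CPM in rmTBI against 46.6 and 86.2 CPM in sham. The last is Arhgap25, at 12.2 and 13.7 CPM in rmTBI against 3.28 and 4.65 CPM in sham.

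The highest levels per length belonged to neuronal mRNAs and a ribosomal protein. Camk2a, the alpha subunit of the calcium/calmodulin kinase whose mRNA is known from dendrites, led with 2108 CPM per kb over a 271-base peak. It held 758 and 535 CPM in rmTBI, against 562 and 430 CPM in sham, and the groups overlapped. Its log2 fold was 0.43 between the libraries numbered 0 and 0.31 between those numbered 1, and the peak did not pass the test. Rpl4, a protein of the large ribosomal subunit, followed at 1435 CPM per kb, then Kif5a, a kinesin of axonal transport, at 1138, Penk, the enkephalin precursor, at 1123, Map1b, a microtubule-associated protein, at 1066, and Napb, the beta-SNAP of synaptic vesicle fusion, at 954 CPM per kb. Of these 6, Penk was the one whose groups did not overlap, with 437 and 423 CPM in rmTBI, against 783 and 765 CPM in sham (log2 -0.85, adjusted p = 0.475, edgeR). For Map1b the levels were 773 and 745 CPM in rmTBI, against 757 and 794 CPM in sham.

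Several genes carried a number of shared 3' UTR peaks. Of the 3559 genes, 2844 had 1, 545 had 2, 123 had 3 and 47 had more. Grin2b, which encodes the GluN2B subunit of the NMDA receptor, had 8 over chr6:135715001-135732450, with log2 folds from -0.18 to 0.21 and levels from 25.1 to 410 CPM per kb. Camk4, a nuclear calcium/calmodulin kinase, had 6, all lower in rmTBI, from -0.49 to -0.24, and none passed the test. Its 361-base peak held 34.3 and 32.9 CPM in rmTBI, against 48.6 and 45.6 CPM in sham. Of the 11 genes with 5 shared peaks, those with a high mean level included Pgm2l1, an enzyme of sugar phosphate metabolism, and the potassium channel gene Kcna6. Of the 5 peaks named Kcna6, 1 spanned 19812 bases on the plus strand, and the others were on the minus strand. Log2 folds ran from 0.18 to 0.37 in Pgm2l1 and from -0.28 to -0.05 in Kcna6, and none of these peaks passed the test. Peaks of 1 gene lay near each other in fold. Within the 714 genes with more than 1 peak, the median SD of the log2 fold was 0.11, against an SD of 0.32 between gene means. These are unlike measures, the first a median over genes that mostly had 2 peaks, and their difference was not tested. In 479 of the 714 genes all peaks had the same sign. Peaks with the same gene name can share a transcript, or lie on opposite strands as in Kcna6, and are not replicates.

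Genes were also grouped into 13 lists by function or cell type, each gene taken at the median log2 fold over its shared 3' UTR peaks. Over all 3551 genes with a tested shared peak, 1932 (54.4%) stood higher in rmTBI and the median was 0.02, and over the 10209 genes with any tested peak 51.0% stood higher and the median was 0.01. Which side of 0 such medians fall on is not firm, given the values without single libraries above. In those values the library numbers are not balanced between the groups. No peak of any list was called except the 5 already named, which belong to the thalamic list. Synaptic and dendritic genes were the best represented, with 36 of 51 having a shared 3' UTR peak. Their median was 0.11, with 30 higher and 6 lower, and it was 0.06 without rmTBI 1 and 0.18 without sham 1. Between same-numbered libraries it was 0.11 for number 0 and 0.15 for number 1. Dlgap1, a scaffold of the postsynaptic density, had 9.17 and 12.8 CPM in rmTBI, against 7.84 and 7.86 in sham, and Ddn, a dendritic protein whose mRNA lies in dendrites, had 307 and 255 CPM, against 228 and 202. Shank1, another scaffold, stood at 0.18 over its 3 peaks. The one of 92 bases with the smallest p-value had 1.52 and 1.44 CPM, against 0.499 and 0.841.

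Immediate early genes, which neuronal activity induces, had a shared peak in 12 of 29. Their median was 0.36, with 11 higher and 1 lower. It was 0.16 without rmTBI 1 and without sham 0, and 0.73 without sham 1. Between same-numbered libraries it was 0.40 for number 0 and 0.31 for number 1. Egr2 stood at 0.91, Dusp1 at 0.51 and Egr1 at 0.42, and Jun and Jund at 0.07 and -0.01. The Arc peak, on an mRNA transported into dendrites, had 16.5 and 20.1 CPM in rmTBI, against 12.2 and 13.1 CPM in sham. The Btg2 peak had 6.14 and 5.90 CPM, against 2.78 and 3.66, and the Ier5 peak 5.76 and 10.6 CPM, against 4.63 and 5.19. At all 3 the groups did not overlap, and none passed the test. Their choice by smallest p-value favours this, and 12.3% of all tested peaks lay apart in the higher direction. The log2 fold of the Ier5 peak was 0.75, with 0.22 without rmTBI 1 and 1.10 without rmTBI 0.

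Proteins that bind 3' UTRs, with the microRNA and decay machinery, had a shared peak in 23 of 57 genes. Their median was 0.06, with 18 higher and 5 lower. It was 0.0016 without sham 0, 0.17 without rmTBI 0 and 0.25 without sham 1. Between same-numbered libraries it was 0.07 for number 0 and 0.11 for number 1. Celf4, a neuronal binder of 3' UTRs, had 252 and 306 CPM in rmTBI, against 192 and 232 CPM in sham. Pan3 of the deadenylation complex had 11.1 and 10.5 CPM, against 8.48 and 8.60, and the 5'-to-3' exonuclease gene Xrn1 had 5.53 and 5.25 CPM, against 6.56 and 7.10. Of the m6A machinery, 4 of 21 genes had a shared peak, with a median of -0.01. The reader genes Ythdf2, Ythdf3 and Ythdc1 stood at -0.08, -0.01 and -0.02, and Zc3h13 of the writer complex at 0.02. The Ythdc1 peak had 89.5 and 97.3 CPM in rmTBI, against 90.7 and 99.0 CPM in sham.

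Markers of cells and regions checked the labelled tissue. Transcription factors of cortical neurons had a shared peak in 17 of 28, summed to 460 and 590 CPM in rmTBI, against 371 and 487 in sham. Bcl11a, a zinc finger factor of projection neurons, had 6.60 and 3.89 CPM in rmTBI, against 2.64 and 2.52 CPM in sham. Of this list 14 genes stood higher and 3 lower, with a median of 0.32, and none passed the test. The median was 0.19 without sham 0 and 0.55 without sham 1. Between same-numbered libraries it was 0.30 for number 0 and 0.35 for number 1.

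Most markers of neighbouring regions with a shared peak stood lower in rmTBI. Of 20 thalamic markers 11 had a shared 3' UTR peak, 10 lower and 1 higher, with a median of -2.40 and summed levels of 73.8 and 102 CPM in rmTBI, against 358 and 533 CPM in sham. This list was written with the called genes known and holds all 5 of them, so that its count is no independent evidence of direction. Beyond the genes already given, Amotl1 stood at -1.65, Zic1 at -1.18, Adarb1 at -1.14 and Lhx2 at 0.52. Of 15 striatal markers 5 had a shared peak, 1 higher and 4 lower, with a median of -0.85 and sums of 478 and 473 CPM in rmTBI, against 848 and 851 CPM in sham. The D2 dopamine receptor gene Drd2 had 4.85 and 4.32 CPM, against 10.3 and 12.4. The striatal GTPase gene Rasd2 had 3.79 and 3.92 CPM, against 9.27 and 9.07. Isl1, a LIM homeobox gene, stood at 0.17. The part of these lists in the called differences was not tested.

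Of the oligodendrocyte and myelin genes, 8 of 25 had a shared peak, 1 higher and 7 lower (median -0.67), with summed levels of 258 and 307 CPM in rmTBI, against 356 and 419 CPM in sham. Mobp had 11.8 and 13.5 CPM, against 21.1 and 26.8, and Opalin 5.08 and 5.47, against 9.84 and 9.03. The progenitor gene Pdgfra stood at -0.30 and Gpr17, of cells about to mature, at 0.31. Vascular markers (7 of 13 genes) had a median of -0.19, astrocyte markers (4 of 17) -0.05 and microglial markers (4 of 16) 0.05. Microglial sums were 30.2 and 33.1 CPM in rmTBI, against 27.6 and 32.9 CPM in sham. Of 11 choroid plexus markers only Prlr had a shared peak, with 0 and 24 counts in rmTBI, against 25 and 64 in sham, and none of 10 blood cell markers had a peak of any class.

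**Figure D5:**
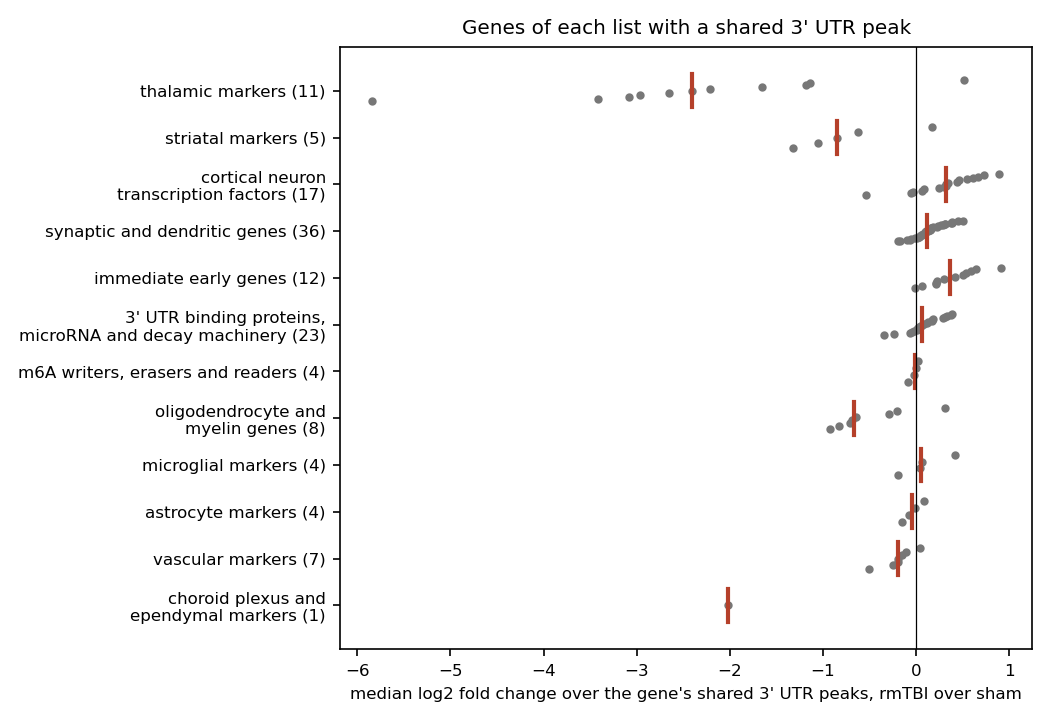
Each grey point is a gene with a tested shared 3' UTR peak, at the median log2 fold change over its shared peaks, rmTBI over sham, and red marks give the median of the list, with the number of genes in parentheses. Thalamic, striatal and myelin lists have medians of -2.40, -0.85 and -0.67, and the immediate early and cortical lists 0.36 and 0.32.

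The authors' deposited table carries a further contrast. At 4426 of the 4508 shared 3' UTR peaks (98.2%) its log2 value lay within 0.1, after the median offset of -0.07, of a ratio of ratios, namely rmTBI library 1 over rmTBI library 0, divided by sham library 1 over sham library 0, with 0.5 added to each count. It is thus not a fold change of rmTBI over sham in counts. The lists that go with the authors' deposited table held 17 shared 3' UTR peaks as higher and 13 as lower, which is 0.377% and 0.288% of them, against 0.815% and 0.43% of all rows. In the authors' deposited table the highest of those listed were Tgfb2, a growth factor of the TGF-beta family, at a log2 of 3.60, Prlr at 3.16, Tmem132c at 2.05 and Serpinb1a at 1.78. The lowest listed in the authors' deposited table were Sema3f, a semaphorin of axon guidance, at -3.54, the lactate transporter gene Slc16a3 at -2.41, Hpgds at -1.86 and Epas1 at -1.81. The 1 shared 3' UTR peak with an adjusted p under 0.05 in the authors' deposited table was that of Shox2, at a log2 of 1.70 and an adjusted p of 0.00629.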

How the data were processed

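The authors deposited read counts per peak, whole numbers that are not normalized, in a table that stacks peaks called in rmTBI and in sham, per the file headers, with a log2 value and a p-value per peak from a test that is not named. STAR, DESeq2 and GRCm39 are named in the submitters' processing notes, with no role or version. The sources used here give neither the peak caller nor how reads were counted or whether by strand. Coordinates matched RefSeq genes of GRCm38.p6 and are read as such. The rmTBI set has 16034 rows with peak numbers up to 28375, and the sham set 17943 with numbers up to 28022.

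The test was that of edgeR 4.0.16 under R 4.3.3 (TMM, filterByExpr, quasi-likelihood F-test, group alone, 2 residual degrees of freedom), with Benjamini-Hochberg adjustment over 33415 peaks. Peaks of both sets over 1 region share reads. The SE is the log2 fold change over the square root of F. The script was tested on simulated data. DESeq2 was version 1.42.0.

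Named genes were every called gene, the 8 higher and 8 lower by p-value, the 6 highest in CPM per kb (peaks of at least 100 bases), the 5 with the most shared peaks, 3 per list by p-value, the 4 largest and 4 smallest deposited log2 values, and the extremes of overlap and width. List genes given by value alone, the genes with printed sequences and miRNA hosts were chosen after their values were seen. The regions and lists were chosen with earlier results of these data known. Intervals for counts are not given. Overlapping genes and antisense partners are uncertain. Some genes that the rule names are not reported here.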

Additional observations from a re-analysis of the deposited data

How the results depend on the processing

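The 5 calls of the edgeR test became 0 with library-size scaling (134 at an unadjusted p under 0.05) and 0 when each library had to hold 10 counts or more (133 unadjusted, with Shox2 not tested); DESeq2 called 17, and 3 of the 5 met a reciprocal overlap of at least 0.5 of either peak. Leaving out each library in turn gave 9 to 22 calls, with the lone library assumed to vary like the others. With the library number as a replicate block 529 were called (267 higher, 262 lower), the 5 among them, which is 11.8%, against 10.6% of all tested peaks. Deviations from the group means correlated at 0.48 between same-numbered libraries, but no label says that the numbers pair samples. DESeq2 size factors, no filter and sham rows alone gave 5, 5 and 6 calls. Other definitions of a shared peak gave 3701 to 4551 peaks. With a library left out, log2 folds of some uncalled peaks changed sign: Aqp4 -0.61 to 0.29, Flt1 -0.44 to 0.053, P2ry12 -0.11 to 0.19, Rgs5 -0.46 to 0.023, Slc2a1 -0.52 to 0.065, Ythdc1 -0.096 to 0.044, Ythdf2 -0.24 to 0.081 and Zc3h13 -0.19 to 0.24. The causes were not tested. With single libraries left out, the median log2 fold over all shared peaks ran from -0.13 to 0.15, and the library numbers were then not balanced between the groups. Medians of the m6A, microglial, astrocyte and vascular lists changed sign in at least 1 alternative, and those of the thalamic, striatal, cortical, synaptic, immediate early, 3' UTR binding and myelin lists in none, although the cortical, synaptic, immediate early and 3' UTR binding ones moved by over 1.5 times.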

Other observations

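Sham and rmTBI peaks over the same place never had the same start and end, in 0 of the 4732 pairs of shared 3' UTR peaks and in 0 of the 12262 pairs of the whole table. Either the 5' or the 3' edge was the same in 2213 of the 4732 pairs (46.8%), the 5' edge in 976 and the 3' edge in 1237.

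The shared 3' UTR peaks differed from coding ones between the numbered libraries. The median log2 ratio of library 1 to library 0 was 0.25 in rmTBI and 0.24 in sham at shared 3' UTR peaks, and 0.00 in both groups at shared coding peaks. At 3' UTR peaks of the sham set alone it was -0.28 in rmTBI and 0.29 in sham, and at those of the rmTBI set alone 0.36 in rmTBI and -0.49 in sham.

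Some regions are listed more than once. The 2 peaks that each overlap 4 rmTBI peaks are both named Gm28048 and nearly coincide (chr11:22835996-22837161 and chr11:22836002-22837139), and 66 of the 4508 peaks overlap another of them.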
